A study of Mus musculus with 25 samples.

Results

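Interferon-stimulated genes were followed through RB knock-down and RB re-expression in the pituitary of sh*Rb* mice. The group held 46 genes, listed by name as known targets of interferon signalling, with earlier results of these data known. All 46 were among the 15315 genes listed for the long-term experiment and the 14007 listed for the short-term experiment. By role they were 5 transcription factors, 18 antiviral effectors, 3 genes of the ISG15 system, 5 nucleic acid sensors and their regulators, 6 interferon-inducible GTPases, 4 members of a PARP group and 5 other interferon-stimulated genes.

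All 25 mice carried a *Rosa26*-rtTA transgene and, at the *Col1a1* locus, a doxycycline-inducible miR-E shRNA against *Rb* linked to GFP. Doxycycline (dox) in the drinking water switched the shRNA and GFP on, and its removal switched both off. In the long-term experiment, pituitary lesions came from mice treated with dox for 6 weeks (6w+dox, 3 females), after 12 weeks on dox (12w+dox, 2 females and 2 males) and after 6 weeks on dox followed by 6 weeks off dox (12w-res, 3 females and 2 males). In the short-term experiment, pituitaries came from mice after 16 weeks on dox (16w+dox, 3 males) and then 1 day (1d-dox, 4 females), 3 days (3d-dox, 3 males) or 5 days (5d-dox, 3 females) without it. The line goes back to 1 embryonic stem cell clone and 1 shRNA, rtTA is driven by a broadly active promoter, and the dox water also held sucrose, so that mice off dox lost both. None of the 7 groups held mice without the transgenes. Whole glands or tumors were lysed, and in such bulk samples fewer cells of a type and less RNA per cell cannot be told apart.

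Type I interferons bind a receptor on the cell surface whose kinases activate a complex of transcription factors that includes STAT2 and IRF9. This complex binds a DNA element called the ISRE in the promoters of interferon-stimulated genes. Interferon gamma acts through another element, the GAS. The induced proteins block viral entry, translation and replication, tag other proteins with ISG15, and include the sensors and factors of the pathway itself, so that the response can amplify. Most cell types can express these genes, and resident macrophages keep many of them on at a low level.

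The promoter sequences were searched for both elements, and only some of them held a match. Windows of 300 bases (250 before to 50 after the start site, RefSeq, GRCm38.p6) were at hand for 34 of the 46 genes. A gene was counted when any of its windows held a match. An ISRE-type match, spelled GAAANNGAAA and searched on both strands, occurred in 17 of the 34 genes (50%), against 3.99% of all 27025 symbols. A GAS-type match, TTCNNNGAA, which reads the same on both strands, occurred in 9 of 34 (26.5%), against 9.55% of all. Genes with both spellings were counted under each. The stretches below lie upstream of the gene and belong to genes that the results turn on, with the ISRE-type matches in capitals and 10 bases on either side. GAS-type matches are not marked, and the *Bst2* stretch holds one that runs into its capitals. The first 4 belong to genes that were lower in 12w-res than in a dox group. *Irgm1* is shown because it holds the same letters and was not called lower in 12w-res.
Isg15, chr4:156200865-156200906, minus strand: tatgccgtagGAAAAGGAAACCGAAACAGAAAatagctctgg
Ifit1, chr19:34640775-34640823, plus strand: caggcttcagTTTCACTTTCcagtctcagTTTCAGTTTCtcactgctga
Bst2, chr8:71537577-71537612, minus strand: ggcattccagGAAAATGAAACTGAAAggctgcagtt
Oas3, chr5:120777715-120777744, minus strand: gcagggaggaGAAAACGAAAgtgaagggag
Irgm1, chr11:48871425-48871460, minus strand: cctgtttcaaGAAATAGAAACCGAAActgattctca

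The *Isg15* promoter held 3 overlapping ISRE-type matches, and those of *Ifit1*, *Bst2* and *Irgm1* held 2 each. The matched stretch began 78 bases before the start site of the window in *Isg15*, 104 in *Ifit1* and 130 in *Bst2*. Of the 17 genes with a window that were called lower in 12w-res against either dox group, 7 held an ISRE-type match (41.2%). Among the other 17 genes with a window 10 did (58.8%). A match is a description of the letters and not evidence of binding.

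Values are given as FPM, read counts scaled by library size factors. Reads on genes numbered 19066053 to 28968476 per mouse in the long-term experiment, made from poly(A) RNA, and 9573101 to 13036900 in the short-term experiment, made from RNA depleted of ribosomal RNA. Levels are therefore not compared between the 2 experiments. The targeted gene followed the labels in the long-term mice: *Rb1* stood at 1.86 to 5.09 FPM in the 7 dox-treated mice and at 16.1 to 20.3 in the 5 12w-res mice. In the short-term mice *Rb1* stayed between 3.47 and 6.03 FPM, with 0 calls, while GFP went from 1025 to 1360 FPM at 16w+dox down to 9.34 to 15.2 at 5d-dox. The melanotroph markers were present in every mouse (summed level at least 98586 FPM in the long-term mice, mostly *Pomc*). Their sum was 110911 to 382996 FPM at 6w+dox, 98586 to 201557 at 12w+dox and 462270 to 583568 in 12w-res. Every 12w-res mouse thus lay above every dox-treated mouse. Of these 5 markers, *Pcsk2* was called higher in 12w-res against 12w+dox (1.37, adjusted p = 0.00218), *Pax7* was lower by less than the minimum (-0.38, adjusted p = 0.0453), and *Pomc* (1.86), *Tbx19* (-0.14) and *Oacyl* (-0.06) did not pass the test. Scaling by total reads instead of size factors shifted the all-gene median by 0.29 between 12w+dox and 6w+dox and by -0.61 between 12w-res and 12w+dox (log2).

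Across the long-term experiment, the interferon-stimulated genes were lowest in the mice that had been taken off dox. The median over the 46 genes of the log2 difference from the 6w+dox mean was -0.18, 0.22 and -0.10 in the 3 6w+dox mice. The 12w+dox mice had -0.10, -0.28, -0.20 and -0.23 and the 12w-res mice -0.63, -0.71, -0.80, -0.78 and -0.96. All 5 12w-res mice lay below all 7 dox-treated mice. Of the 46 genes, 23 were called in at least 1 of the 3 comparisons and 23 in none.

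**Figure D1:**
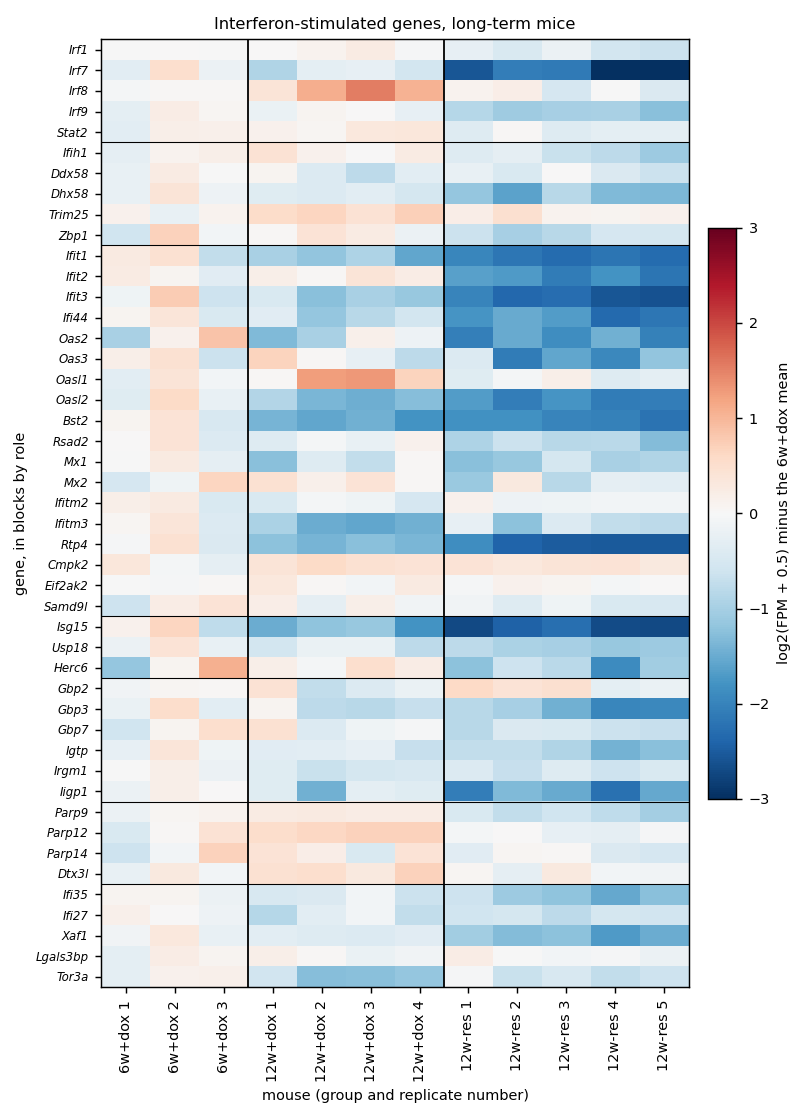
Heat map of the 46 interferon-stimulated genes (rows, in blocks by role) in the 12 long-term mice (columns, by group), coloured by log2(FPM + 0.5) minus the mean of the 3 6w+dox mice. The columns of the 5 12w-res mice are mostly blue (lower), with medians over the 46 genes from -0.96 to -0.63, while those of the 12w+dox mice run from -0.28 to -0.10.

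The comparison of 12w-res with 12w+dox asks how mice of the same time since first treatment differ after 6 weeks without the shRNA. The test was limma on log2(FPM + 0.5), and a call needed both a log2 fold change over 1 in size and a p under 0.05 after Benjamini-Hochberg adjustment over all genes. Of the 46 genes, 13 were called lower (28.3%) and 0 were called higher, where the shares of all genes called were 5.04% lower and 6.24% higher. Called or not, 40 lay below 0 and 6 above, with a median log2 fold change of -0.72 (all genes -0.00). In 24 genes (52.2%) every 12w-res mouse was below every 12w+dox mouse, a pattern seen in 17.4% of all genes. Without the minimum fold change, 30 genes were lower and 2 higher at that adjusted p, against 18.3% and 19.4% of all genes, and edgeR and DESeq2 called 0 higher as well.

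All 5 transcription factors were lower at an adjusted p under 0.05, with groups that did not overlap, and 2 of them were called. *Irf7* (chr7:141263183-141266499), the factor that drives the late wave of interferon production, changed most. It stood at 19.0, 34.1 and 21.0 FPM in the 6w+dox mice, at 12.6, 19.3, 20.2 and 16.0 in the 12w+dox mice and at 3.59, 5.28, 5.10, 2.01 and 2.38 in the 12w-res mice. Every 12w-res mouse thus lay under 6 FPM and every dox-treated mouse over 12. The fall from 12w+dox was 4.37-fold (log2 fold change -2.13 ± 0.27 SE, adjusted p = 4.06e-05). *Irf8*, a factor of macrophages and B cells as well as an interferon target, was 2.20-fold lower (-1.13 ± 0.21, adjusted p = 0.000925). The DNA-binding partner of STAT2, *Irf9*, was lower by less than the minimum (-0.94, adjusted p = 0.00012), as were *Irf1* (-0.50, adjusted p = 0.00389) and *Stat2* (-0.47, adjusted p = 0.0155).

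Among the 18 antiviral effectors 8 were called lower: the 3 IFIT genes, 3 genes of the OAS family, *Ifi44* and *Rtp4*. *Ifit2* (chr19:34550550-34576534), which encodes an RNA-binding protein that restrains several viruses, stood clearest apart. Its values were 18.3, 16.4 and 12.1 FPM at 6w+dox, then 17.5, 15.9, 20.2 and 18.2 at 12w+dox, and 4.68, 4.39, 3.23, 4.07 and 2.98 in 12w-res. The 2 dox groups overlapped, and no 12w-res mouse reached 5 FPM, a 4.26-fold difference from 12w+dox (-2.09 ± 0.17, adjusted p = 5.7e-07). *Ifit3* (chr19:34583119-34588982), a partner of IFIT1, stood at 20.6, 38.2 and 14.4 FPM at 6w+dox, then 16.2, 9.09, 11.3 and 10.03 at 12w+dox, and 5.36, 3.96, 4.23, 3.37 and 3.26 in 12w-res. Here too all 12w-res mice lay below all others, 2.65-fold under the 12w+dox mice (-1.41 ± 0.25, adjusted p = 0.00071). *Oas3* (chr5:120753098-120777684), one of the synthetases that activate RNase L on double-stranded RNA, was scarce. It stood at 1.92, 2.41 and 0.869 FPM at 6w+dox, then 2.86, 1.69, 1.29 and 0.726 at 12w+dox, and 1.09, 0, 0.228, 0.0590 and 0.442 in 12w-res. These 12w-res values came from 0 to 21 reads, and 1 of the 5 mice overlapped the 12w+dox range (-1.35 ± 0.37, adjusted p = 0.0106).

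The other called effectors had smaller changes. *Ifi44* fell by 1.17 on the log2 scale (adjusted p = 0.00158), *Rtp4*, which supports the surface expression of some receptors and restrains several viruses, by 1.05 (adjusted p = 0.000833) and *Ifit1* by 1.03 (adjusted p = 0.00285). Of the OAS family, *Oas2* fell by 1.20 (adjusted p = 0.0191) on 2 to 7 reads per 12w-res mouse and the RNA-binding *Oasl1* by 1.01 (adjusted p = 0.00918). Not every effector followed. *Ifitm3*, which blocks viral fusion in endosomes, was higher in 12w-res by less than the minimum (0.68, adjusted p = 0.017), and its neighbour *Ifitm2* had a log2 fold change of 0.22. *Eif2ak2*, the kinase PKR that halts translation, stayed at 22.1 to 29.5 FPM at 12w+dox and 22.6 to 25.7 in 12w-res (-0.11), and the nucleotide kinase *Cmpk2* had a value of -0.09.

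The ISG15 system was lower in all 3 of its genes at an adjusted p under 0.05, and 2 were called. *Isg15* (chr4:156199424-156200818) encodes a ubiquitin-like modifier. It stood at 12.98, 18.7 and 6.83 FPM at 6w+dox, then 3.91, 4.90, 5.17 and 3.10 at 12w+dox, and 1.40, 1.80, 2.09, 1.42 and 1.38 in 12w-res. The 3 groups formed 3 separate steps, and the last of them was 2.24-fold (-1.16 ± 0.25, adjusted p = 0.00269). *Herc6*, the ligase that attaches ISG15 in mice, fell 2.52-fold (-1.33 ± 0.36, adjusted p = 0.00932), and *Usp18*, which removes it, had a smaller difference (-0.56, adjusted p = 0.0232).

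Of the 5 sensors and their regulators, 0 were called and 4 were lower at an adjusted p under 0.05. These were *Ifih1* (MDA5, -0.85), *Dhx58* (LGP2, -0.85), *Zbp1* (-0.83) and the ubiquitin ligase *Trim25* (-0.38). *Ddx58*, which encodes RIG-I, had a log2 fold change of 0.00. Among the 6 GTPases, which attack the vacuoles of intracellular pathogens, 1 was called: *Iigp1* fell 2.17-fold (-1.12 ± 0.26, adjusted p = 0.00442), with overlapping groups. *Gbp3* (-0.87, adjusted p = 0.0236) and *Igtp* (-0.61, adjusted p = 0.0163) were lower by less than the minimum, *Irgm1* had a value of -0.00 and *Gbp2* of 0.43. The PARP group, ADP-ribosyltransferases and the ligase partner DTX3L, had 0 of 4 called and 3 of 4 lower at an adjusted p under 0.05, led by *Parp9* (-0.96, adjusted p = 8.13e-05), which stood at 20.7 to 21.5 FPM at 12w+dox and 8.51 to 12.8 in 12w-res. The other 5 genes were mixed: *Xaf1* (-0.98, adjusted p = 0.000244) and *Ifi35* (-0.73, adjusted p = 0.00332) were lower, *Tor3a* was higher (0.56, adjusted p = 0.0242, but -0.084 when scaled by total reads), and *Ifi27* (-0.11) and *Lgals3bp* (0.00) were near 0.

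The calls depended on the setting. Of the 13 genes called lower, 8 kept the call without any 1 mouse, and the count ran from 9 to 15. The call was lost for *Irf8* without 12w+dox replicate 3 (-0.96), for *Oas2* without 12w+dox replicate 3 or 4 (-0.96 and -1.06, adjusted p = 0.0703 and 0.064), for *Iigp1* without 12w-res replicate 4 (-0.99), for *Ifit1* without 12w+dox replicate 1 or 3 or 12w-res replicate 3 (-0.997 to -0.950) and for *Oasl1* without 12w+dox replicate 2 or 3 or 12w-res replicate 1, 4 or 5 (-0.98 to -0.84). With a pseudocount of 1 the count was 6, and with totals of reads as the scale it was 34, where the median of all genes had moved by -0.61. Among females 13 genes were called lower as well, but 5 of the genes above lost the call: *Isg15* (-1.21, adjusted p = 0.0587), *Iigp1* (-0.86, adjusted p = 0.139), *Herc6* (-1.30, adjusted p = 0.141), *Oasl1* (-0.82, adjusted p = 0.200) and *Oas2* (-0.62, adjusted p = 0.419).

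**Figure D2:**
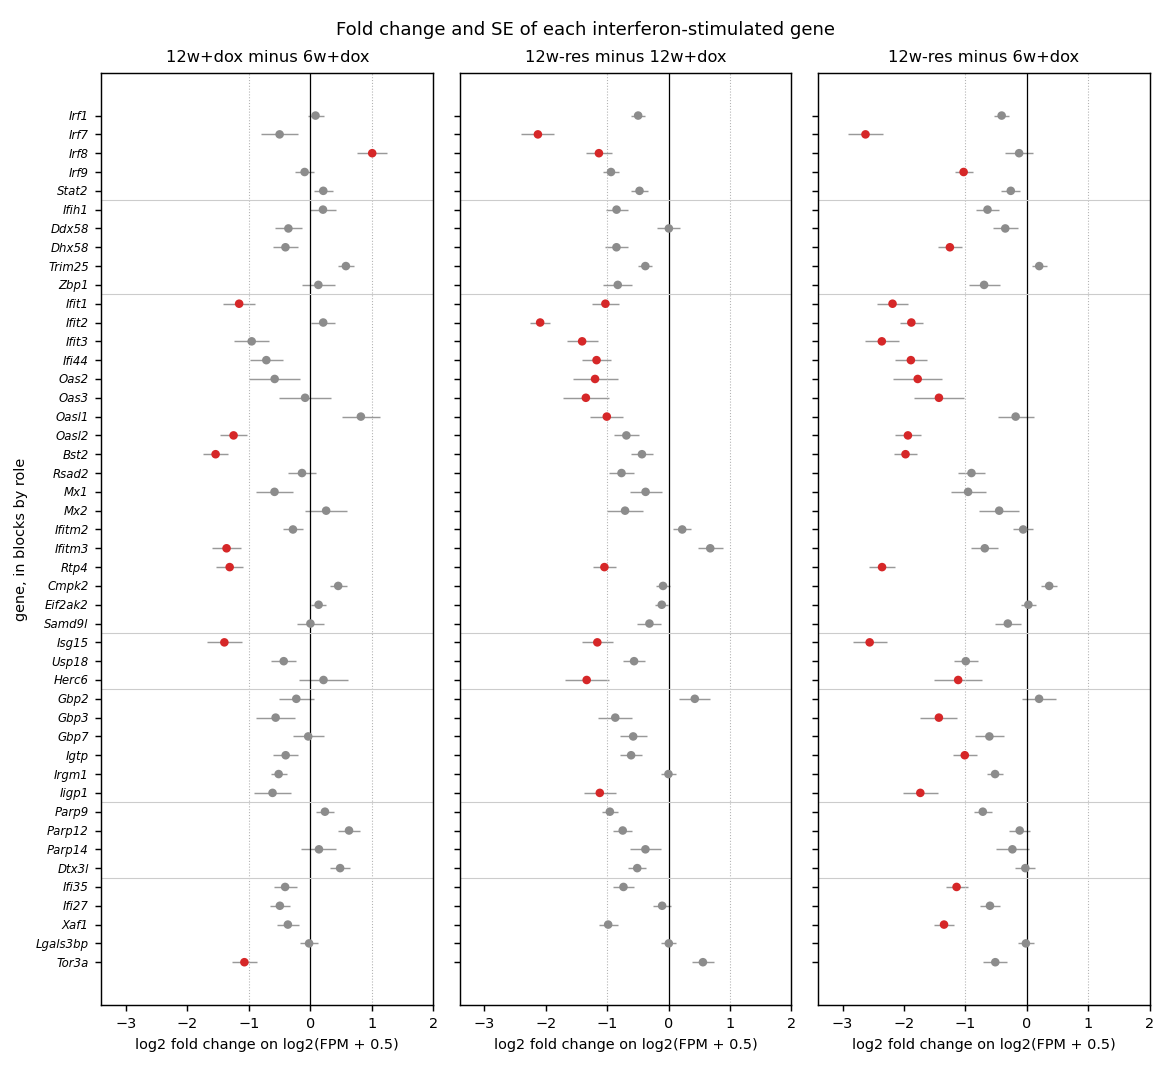
Log2 fold changes of the 46 genes (rows) with standard errors as bars in the 3 long-term comparisons (panels), from limma on log2(FPM + 0.5), with called genes in red. In the middle panel, 12w-res against 12w+dox, 13 genes are called lower and 0 higher.

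The comparison of 12w-res with 6w+dox sets the mice against the stage at which dox was withdrawn. Here 19 of the 46 genes were called lower (41.3%) and 0 higher (0 also by edgeR and DESeq2, and 1 higher at an unadjusted p under 0.05), where 5.82% of all genes were called lower and 5.81% higher. The median log2 fold change was -0.71 (all genes -0.02), 42 genes lay below 0, and in 24 genes (52.2%) all 12w-res mice were below all 6w+dox mice, against 15.9% of all genes. This comparison uses the same 12w-res mice as the previous one, so the 2 lists of calls are not independent. They held 11 genes in common: *Irf7*, *Ifit1*, *Ifit2*, *Ifit3*, *Ifi44*, *Oas2*, *Oas3*, *Isg15*, *Rtp4*, *Herc6* and *Iigp1*.

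*Irf7* again changed most, followed by *Isg15* and the effectors *Ifit3* and *Rtp4*. *Irf7* was 6.18-fold lower (-2.63 ± 0.29, adjusted p = 1.51e-05), *Isg15* 5.89-fold (-2.56 ± 0.28, adjusted p = 1.15e-05) and *Ifit3* 5.14-fold (-2.36 ± 0.27, adjusted p = 2.37e-05). *Rtp4* (chr16:23520219-23614222) was 5.13-fold lower (-2.36 ± 0.21, adjusted p = 1.78e-06). It stood at 22.7, 31.8 and 17.1 FPM at 6w+dox, then 9.63, 8.48, 9.39 and 8.57 at 12w+dox, and 6.03, 3.96, 3.69, 3.60 and 3.65 in 12w-res, so that its groups formed 3 separate steps like those of *Isg15*. Its gene model overlaps that of *Masp1*, and reads shared between them cannot be assigned here.

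The remaining calls covered most roles. Among the effectors *Ifit1* (-2.19), *Bst2* (-1.98), *Oasl2* (-1.94), *Ifi44* (-1.89), *Ifit2* (-1.88), *Oas2* (-1.78) and *Oas3* (-1.43) were called, which with *Ifit3* and *Rtp4* makes 9 of 18. Outside them, *Iigp1* (-1.73), *Gbp3* (-1.43) and *Igtp* (-1.01) of the GTPases, *Xaf1* (-1.35) and *Ifi35* (-1.14) of the other genes, the sensor *Dhx58* (-1.25), *Herc6* (-1.12) and the factor *Irf9* (-1.03) were called. The adjusted p-values of these genes ran up to 0.0384, that of *Herc6*. Of the PARP group 0 of 4 were called, and *Cmpk2* was the 1 gene higher at an adjusted p under 0.05 (0.36, adjusted p = 0.0452).

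Of these 19 genes, 15 kept the call without any 1 mouse, and the count ran from 15 to 20. *Herc6* lost it without 12w-res replicate 1, 4 or 5 or 6w+dox replicate 2 or 3 (-1.14 to -0.59, adjusted p = 0.06 to 0.198). *Igtp* lost it without 12w-res replicate 4 or 5 or 6w+dox replicate 2 (-0.95 to -0.83) and *Irf9* without 12w-res replicate 5 or 6w+dox replicate 2 or 3 (-0.998 to -0.917). *Oas3* lost it without 6w+dox replicate 2 (-1.21, adjusted p = 0.0736). Among females *Herc6* lost it as well (-1.25, adjusted p = 0.0891).

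**Figure D3:**
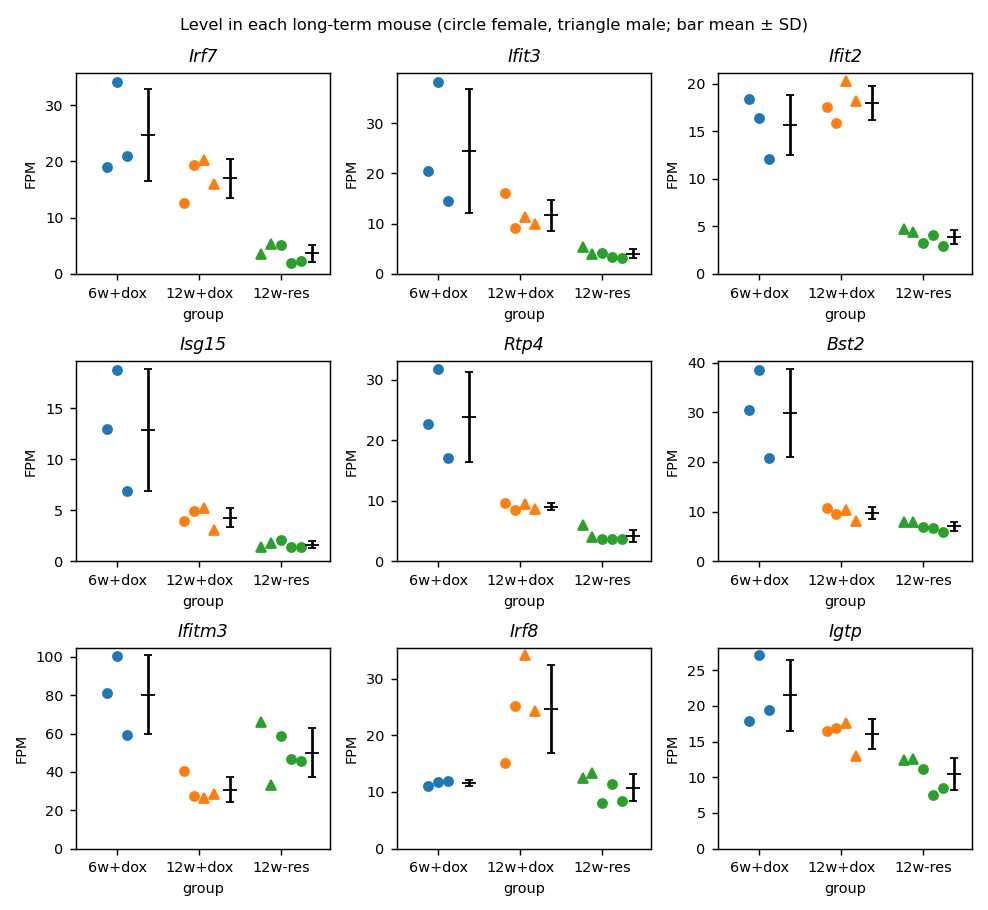
FPM of 9 interferon-stimulated genes in each of the 12 long-term mice, by group, on linear axes (circles, females, triangles, males, with bars for the mean ± SD). Irf7, Ifit2 and Ifit3 are lowest in all 5 12w-res mice, Isg15 and Rtp4 step down across the 3 groups, and Irf8 is highest at 12w+dox.

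Between 6 and 12 weeks on dox a smaller set of genes fell. Against 6w+dox, 7 genes were called lower at 12w+dox (15.2%) and 1 higher, where 4.04% of all genes were called lower and 3.15% higher. The median over the 46 genes was -0.26 (all genes -0.01), or 0.055 with total reads as the scale (all genes 0.29), which called 4 lower and 2 higher. On the main scale 29 lay below 0 and 17 above, and in 12 genes (26.1%) all 12w+dox mice were below all 6w+dox mice, against 12.4% of all genes. The 12w+dox mice are the reference of the first comparison and the 6w+dox mice of the second. The 3 genes called lower both here and from 12w+dox to 12w-res were *Ifit1*, *Isg15* and *Rtp4*.

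*Bst2* (chr8:71534255-71537472), the tetherin that holds budding virus at the membrane, changed most. It stood at 30.4, 38.5 and 20.7 FPM at 6w+dox, then 10.7, 9.50, 10.4 and 8.07 at 12w+dox, and 7.90, 7.82, 6.96, 6.67 and 5.80 in 12w-res. Its fall was 2.91-fold from 6 to 12 weeks on dox (-1.54 ± 0.20, adjusted p = 0.000323), and the further difference to 12w-res did not pass the test (-0.43 ± 0.18, adjusted p = 0.0644) although the groups did not overlap. *Isg15* fell 2.64-fold (-1.40 ± 0.29, adjusted p = 0.00493) and *Rtp4* 2.48-fold (-1.31 ± 0.22, adjusted p = 0.00145). *Ifitm3* (chr7:141009590-141010744) fell 2.57-fold (-1.36 ± 0.23, adjusted p = 0.00155). It ran the other way off dox: 81.1, 100.48 and 59.2 FPM at 6w+dox, then 40.4, 27.6, 26.2 and 28.4 at 12w+dox, and 66.0, 33.0, 58.7, 46.6 and 45.5 in 12w-res.

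The other 3 genes called lower at 12w+dox were *Oasl2* (-1.25 ± 0.22, adjusted p = 0.00227), *Ifit1* (-1.16 ± 0.26, adjusted p = 0.00717) and *Tor3a*, an ATPase of the endoplasmic reticulum (-1.07 ± 0.20, adjusted p = 0.00308). *Irf8* (chr8:120736358-120756694) was the 1 gene called higher. It stood at 11, 11.8 and 11.9 FPM at 6w+dox, then 15.1, 25.1, 34.1 and 24.3 at 12w+dox, and 12.4, 13.4, 8.01, 11.4 and 8.45 in 12w-res. Its rise was 2.01-fold (1.01 ± 0.24, adjusted p = 0.0103), and 12w-res against 6w+dox gave -0.13. By role, 5 of 18 effectors and 1 of 3 ISG15 genes were called lower and 0 sensors, GTPases and PARP genes. *Irgm1* (-0.52), *Ifi27* (-0.50) and *Ifit3* (-0.95) were lower and *Parp12* (0.63), *Trim25* (0.58) and *Cmpk2* (0.45) higher at an adjusted p under 0.05 without reaching the minimum.

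Markers of other cell types were lower at 12w+dox too. Those of other anterior pituitary cells had a median log2 fold change of -2.87 (3 of 5 called lower), fibroblast markers of -1.59 (3 of 5 called lower) and endothelial markers of -0.63 (2 of 5 called lower), while leukocyte (-0.14) and macrophage markers (-0.19) had 0 calls. The scarce T cell markers had a median of -0.65 (1 of 4 called lower). The NK cell marker (-0.91, adjusted p = 0.0347) and 1 of 2 B cell markers were lower by less than the minimum. Of the markers of plasmacytoid dendritic cells 2 of 2 lay below 0, and of the neutrophil markers 2 of 3 lay above 0, with 0 calls. The part of these cell types in the gene levels was not tested.

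All 6w+dox mice were female. Among females the calls were 3 lower and 0 higher, those of *Bst2*, *Ifitm3* and *Rtp4*, while *Isg15* had a value of -1.34 (adjusted p = 0.0649) and *Irf8* of 0.73 (adjusted p = 0.103). Without any 1 mouse the lower calls ran from 5 to 8 and the higher from 0 to 2. The call of *Irf8* was lost without 12w+dox replicate 2, 3 or 4 or 6w+dox replicate 1 (0.835 to 0.997), those of *Ifit1* (-0.93) and *Oasl2* (-0.96) without 6w+dox replicate 2 and that of *Tor3a* (-0.995) without 6w+dox replicate 3.

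Levels can be ranked between genes only per length. As group means of FPM per kilobase of exon, *Ifitm2* was the most abundant of the 46 in each long-term group (134, 108 and 125 at 6w+dox, 12w+dox and 12w-res in that order). *Ifitm3* (118, 45.2 and 73.7) and *Ifi27* (82.8, 59.7 and 54.3) took the next places, with *Ifi27* above *Ifitm3* at 12w+dox. *Bst2* ranked 4 at 6w+dox (33.1) and 7 in 12w-res (7.79). The lowest in 12w-res was *Oas3* at 0.0515, and the median over the 46 genes per kilobase was 4.37, 3.71 and 2.09 in the same order. *Ifitm2*, *Ifitm3* and *Ifi27* were not called lower in 12w-res. *Bst2* and *Ifi35*, which ranked 4 and 5 at 6w+dox, were called lower in 12w-res against 6w+dox.

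The rest of the interferon pathway was read from a list of 93 other genes, of which 73 were in the long-term table. The 17 interferons on the list were in neither table and were not analysed here. From 12w+dox to 12w-res, 10 of the 73 were called lower (13.7%, all genes 5.04%) and 3 higher (4.11%, all genes 6.24%), with a median of -0.20. The most changed were *Mb21d1*, the DNA sensor cGAS (-1.95), *Apol9b* (-1.74), *Ddx60* (-1.42) and, higher, *Isg20* (1.34) and the receptor subunit *Ifnar2* (1.22). *Mb21d1* stood at 2.48 to 6.45 FPM at 12w+dox and 0.520 to 1.18 in 12w-res. From 6w+dox to 12w-res, 11 were called lower (15.1%, all genes 5.82%) and 1 higher (1.37%, all genes 5.81%), led by *Ifi44l* (-2.24), *Ifit3b* (-2.10), *Apol9b* (-2.01), *Oas1a* (-1.59) and *Oas1b* (-1.46). *Ifit3b* and the Oas1 genes have close copies, *Ifit3* among them, so that reads could be split between copies. Between 6w+dox and 12w+dox, *Isg20* and *Ifi44l* (both -1.44) were called lower (2.74%, all genes 4.04%) and 0 higher (all genes 3.15%). Of the 9 receptor subunits and kinases 1 was called in these 3 comparisons, *Ifnar2*.

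General leukocyte and macrophage markers moved the other way from the interferon-stimulated genes in 12w-res, and those of other immune cells were scarce and mixed. The summed level of 15 leukocyte and macrophage markers was 133 to 191 FPM at 6w+dox, 134 to 183 at 12w+dox and 230 to 330 in 12w-res, so that every 12w-res mouse lay above all 7 dox-treated mice, whose 2 groups overlapped. Against 12w+dox, 5 of 5 leukocyte and 9 of 10 macrophage markers were higher at an adjusted p under 0.05, of which 1 and 2 were called. Endothelial (4 of 5 called) and fibroblast markers (5 of 5 called) were higher as well. Of the 3 neutrophil markers, summed to 1.17 to 4.89 FPM at 12w+dox and 1.46 to 2.59 in 12w-res, *S100a8* was lower by less than the minimum (-0.82, adjusted p = 0.0471). In the same comparison 1 of 2 markers of plasmacytoid dendritic cells was called higher (1.30, adjusted p = 0.0494), and the other had a value of 0.46. The T cell markers lay above 0 in 4 of 4 and the NK cell marker below 0 (-0.19), with 0 calls. Against 6w+dox the NK cell marker *Nkg7* was called lower (-1.10, adjusted p = 0.00692), and 4 of 4 T cell and 3 of 3 neutrophil markers lay below 0. Markers of other anterior pituitary cells had a median of 1.10 in 12w-res against 12w+dox (2 of 5 called higher) and of -1.51 against 6w+dox (2 of 5 called lower). Their sum was 57259 to 92508 FPM at 6w+dox, 1173 to 12537 at 12w+dox and 16629 to 32274 in 12w-res. Lymphocyte markers were scarce in all long-term mice. The summed levels were 0.758 to 3.38 FPM for 4 T cell markers, 0.729 to 3.47 for 2 B cell markers, 0 to 1.07 for the 1 NK cell marker listed and 0.503 to 5.82 for 2 markers of plasmacytoid dendritic cells, the main interferon producers of blood. *Cd3e*, *Cd3d*, *Ms4a1*, *Klrb1c*, *Ncr1*, *Gzma* and *Ccr9* were not analysed here. Of the markers that were, *Cd3g*, *Cd8a*, *Nkg7* and *Cox6a2* were at 0 in at least 1 mouse. Over all 47 markers listed, 16 were called higher and 0 lower from 12w+dox to 12w-res, 5 and 3 from 6w+dox to 12w-res, and 1 and 9 from 6w+dox to 12w+dox. The part of cell makeup in the gene levels was not tested.

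**Figure D4:**
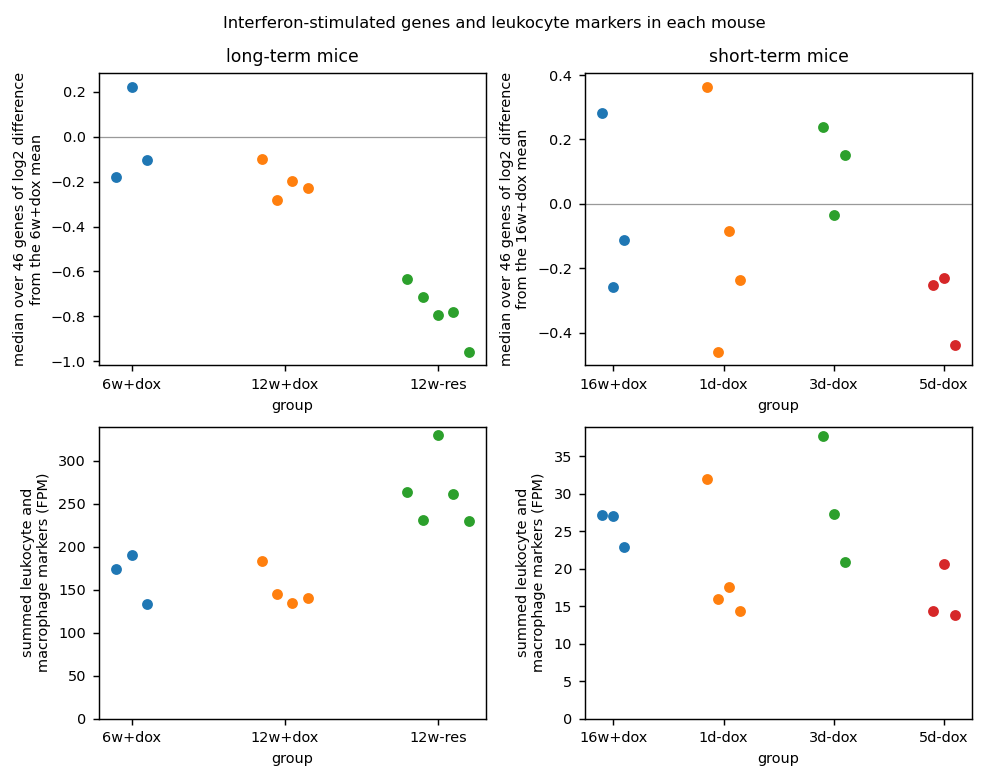
Each point is a mouse, by group, for the 2 experiments: the median over the 46 genes of the log2 difference from the reference group mean, and the summed FPM of 15 leukocyte and macrophage markers. In the long-term mice the 12w-res group is lowest in the first (-0.96 to -0.63) and highest in the second (230 to 330 FPM), while in the short-term mice the medians run from -0.46 to 0.36 and the sums from 13.9 to 37.8 FPM, with 5d-dox below 16w+dox in the sums.

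In the short-term experiment the interferon-stimulated genes did not pass the test at any time off dox. Each of the 4 comparisons had 0 calls among the 46, by limma, edgeR and DESeq2 alike. All genes gave few calls too. Against 16w+dox the share called was 0.00716% higher and 0.0358% lower after 1 day, 0.0788% and 0.0502% after 3 days, then 0.086% and 0.107% after 5 days. Between 5d-dox and 1d-dox it was 0.00716% each way. Sex differed from 16w+dox in both female groups, 1d-dox and 5d-dox, where it cannot be told apart from dox removal.

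At 1 day off dox, 1 gene was higher and 3 were lower at an unadjusted p under 0.05, against 6.78% and 6.28% of all genes, and the median over the 46 genes was -0.06 (-0.28 to 0.038 without any 1 mouse). The 3 smallest p-values were those of *Bst2* (-0.55 ± 0.20, adjusted p = 0.266), *Usp18* (-0.48, adjusted p = 0.294) and the dynamin-like GTPase *Mx2* (-0.41, adjusted p = 0.304). The 16w+dox mice had *Bst2* at 0.774, 0.775 and 0.561 FPM, the 1d-dox mice at 0.593, 0.244, 0.374 and 0.140, the 3d-dox mice at 0.652, 0.367 and 0.885 and the 5d-dox mice at 0.224, 0.338 and 0.422. The 1d-dox and 16w+dox ranges overlapped by 1 mouse, and no value rested on more than 43 reads.

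At 3 days off dox, the comparison within males, 33 genes lay above 0 and 13 below, with a median of 0.12 (all genes 0.01). Without 16w+dox replicate 1 this median was 0.28, without 16w+dox replicate 2 it was -0.00039, and without 16w+dox replicate 3 or 3d-dox replicate 1 or 2 it was 0.044, 0.040 and 0.18. Without 3d-dox replicate 3 it also lay within -0.00039 to 0.28. That mouse had summed neutrophil markers of 30.3 FPM (0.826 and 1.82 in the other 3d-dox mice) and melanotroph markers of 12925 FPM (24734 and 29510). The part of cell makeup was not tested. None of the 46 had an unadjusted p under 0.05, against 7.95% of all genes higher and 8.7% lower. The smallest p-values were those of *Mx1* (0.44, adjusted p = 0.322), *Rsad2*, which makes a chain-terminating nucleotide (0.51, adjusted p = 0.347), and *Parp9* (0.33, adjusted p = 0.406). *Mx1* stood at 0.134 to 0.349 FPM at 16w+dox and 0.306 to 0.891 at 3d-dox, *Rsad2* at 1.04 to 2.07 and 1.73 to 3.25, so that the groups overlapped in both genes.

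At 5 days off dox, 40 genes lay below 0 and 6 above, with a median of -0.32 (all genes -0.00), which was -0.15 without 16w+dox replicate 1 and -0.40 to -0.22 without any other mouse. At an unadjusted p under 0.05, 9 genes were lower (19.6%) and 0 higher, against 6.33% and 7.2% of all genes. They were *Ifit1*, *Ifit2*, *Ifit3*, *Ifi44*, *Oasl2*, *Isg15*, *Bst2*, *Ifitm3* and *Lgals3bp*, of which 7 are effectors. The smallest adjusted p-value among the 46 was 0.200, that of *Isg15* (-0.73 ± 0.24). The level of *Isg15* was 0.774, 0.481 and 0.434 FPM in the 16w+dox mice, 0.722, 0.275, 0.374 and 0.327 after 1 day, 0.934, 0.347 and 0.721 after 3 days and 0.280, 0.156 and 0 after 5 days. All 5d-dox mice lay below all 16w+dox mice, on 0 to 10 reads. *Ifi44* (-1.08 ± 0.41, adjusted p = 0.266) stood at 3.00, 2.22 and 1.23 FPM at 16w+dox and 0.589, 0.987 and 0.563 at 5d-dox, and *Bst2* had a value of -0.54 (adjusted p = 0.291). The summed leukocyte and macrophage markers were also lower at 5d-dox, at 13.9 to 20.6 FPM against 22.8 to 27.1 at 16w+dox, with no overlap, while they were 14.4 to 32.0 at 1d-dox and 20.8 to 37.8 at 3d-dox. Of 38 markers of all cell types tested, 2 were called lower at 5d-dox and at 1d-dox (the endothelial *Cdh5* and the gonadotroph hormone subunit *Lhb*) and 1 higher at 3d-dox (*Lhb*), each against 16w+dox. Their part in the gene levels was not tested.

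Between 5d-dox and 1d-dox, which were both female, 37 genes lay below 0, with a median of -0.26. The unadjusted p was under 0.05 for 1 gene lower and 0 higher, against 2.67% and 3.65% of all genes. That gene was *Isg15* (-0.52, adjusted p = 0.733), followed by *Parp9* (-0.38, adjusted p = 0.766) and the secreted glycoprotein *Lgals3bp* (-0.30, adjusted p = 0.766). This difference and the one at 1 day share the 1d-dox mice, of which 1 stood apart.

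**Figure D5:**
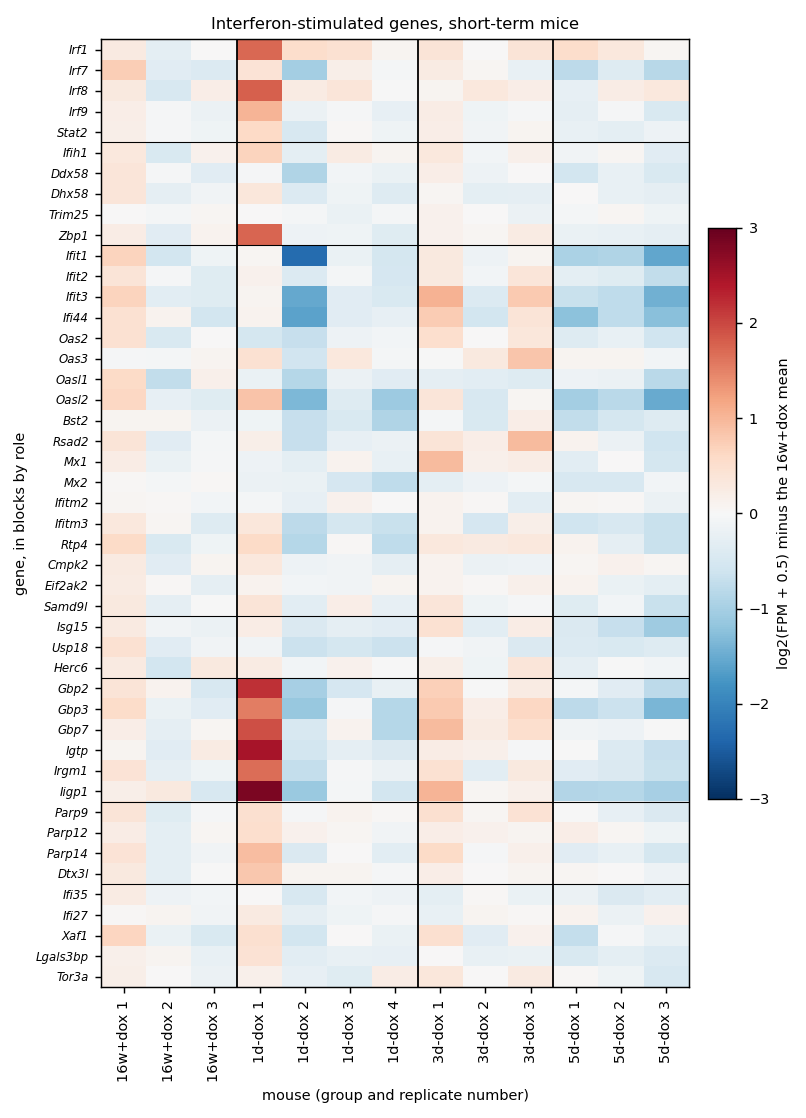
Heat map of the 46 genes (rows, in blocks by role) in the 13 short-term mice (columns, by group), coloured by log2(FPM + 0.5) minus the mean of the 3 16w+dox mice. 1d-dox replicate 1 is red (higher) across the GTPases and transcription factors, and the 5d-dox mice are mostly blue, with medians from -0.44 to -0.23.

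In 1d-dox replicate 1, 22 of the 46 genes (47.8%) were higher than in any of the other 12 short-term mice, against 7.06% of all genes. These included 6 of 6 GTPases, 4 of 4 PARP genes and 4 of 5 transcription factors, but 0 of 3 genes of the ISG15 system and 4 of 18 effectors. *Igtp* stood at 14.8 FPM there and at 1.21 to 2.81 in the others, *Iigp1* at 8.53 and 0.0916 to 2.09 and *Irgm1* at 14.5 and 2.35 to 5.95. *Irf1* (19.4 FPM, others 4.46 to 8.24), the factor induced by interferon gamma, and *Irf8* (22.3 FPM, others 4.17 to 7.90) were also highest there. Outside the 46, 18 of 38 other interferon-induced genes were highest in this mouse, among them *Gbp6* (23.3 FPM, others 0.422 to 4.16) and *Gbp4* (14.8 FPM, others 0.113 to 1.96). *Isg15*, at 0.722 FPM, lay within the range of the others (0 to 0.934).

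Of the leukocyte markers 1 of 5 (*Coro1a*) and of the macrophage markers 3 of 10 (*C1qa*, *C1qb* and *C1qc*) were highest in the same mouse, against 7.06% of all genes. The remaining markers of both lists were not, *Ptprc* among them (1.88 FPM, others 0.428 to 3.19). The T, B and NK cell markers were not in the short-term table and were not analysed here. The part of immune cells in these values was not tested. Without this mouse the median over the 46 genes was -0.28 at 1d-dox against 16w+dox and -0.08 at 5d-dox against 1d-dox, with 0 calls in both.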

How the data were processed

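Pituitary RNA of 25 sh*Rb* mice in 7 groups was analysed, 12 mice in the long-term and 13 in the short-term experiment, grouped by the sample labels. The authors mapped paired-end reads with STAR to mm10, counted them on RefSeq genes and deposited a signal per gene and mouse that DESeq2 size factors had scaled (FPM). The counting tool and its use of strand are not given in the sources used here, so overlapping genes (*Parp9* and *Dtx3l*, *Stat2* and *Apof*, *Ifit1* and *Ifit1bl1*, *Ifi27* and *Ifi27l2a*, *Rtp4* and *Masp1*) are uncertain. All 100% of the values examined were whole reads within 0.1 of a read. Left out of depths and tests were 4 lines of reads outside genes in the short-term experiment (68.8% to 75% of a library) and 2 unnamed lines in the long-term one.

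Each experiment had its own fit over all of its mice, by limma 3.58.1 in R 4.3.3, with log2(FPM + 0.5) as the response and the prior variance following the mean. On this scale the change of scarce genes comes out too small. Genes needed 10 reads in over 50% of the mice of a group: 15315 of 15315 and 13958 of 14007 passed, with all 46 interferon-stimulated genes. Calls needed an adjusted p under 0.05 and a log2 fold change over 1 in size. Alternatives were edgeR 4.0.16 and DESeq2 1.42.0 on the recovered reads, TMM and total-read scaling, pseudocounts of 0.1 and 1, other filters, only the groups compared, sex, a replicate block and each mouse left out. The scripts were tested on simulated data. Exact tests of single genes are not reported, since the genes had been chosen by their changes in the same comparisons. Replicate pairs differed by more than counting error (chi-square per degree of freedom 3.93 to 222), and no label says that mice share a litter or day.

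The 46 genes and all gene and marker lists were chosen with earlier results of these data known. Every called gene is named. Values for every mouse are given for the 4 called genes of largest change per direction and long-term comparison, and in the short-term experiment the 3 genes of smallest p are named. Of the other pathway genes, at most 5 called per comparison are named, and the values of some genes are not reported here. Genes named beyond this were chosen after their values were seen. Sequences and gene positions came from RefSeq (GRCm38.p6) and exon lengths from GENCODE.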

Additional observations from a re-analysis of the deposited data

Results flagged for a closer look

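In groups of 4 or 5 mice, single values were compared with the others by Dixon's test at the 95% level, which flags about 1 in 20 groups by chance. Of the 46 genes, 3 were flagged at 12w+dox, 3 in 12w-res and 5 at 1d-dox. At 12w+dox, *Gbp3* was higher in replicate 1 (19.0 FPM, the others 9.83 to 10.9), as was *Tor3a* (23.3 FPM, the others 14.2 to 15.4), and *Iigp1* was lower in replicate 2 (2.51 FPM, the others 5.90 to 6.16). In 12w-res, *Ifitm2* (93.4 FPM, the others 76.7 to 81.0) and *Rtp4* (6.03 FPM, the others 3.60 to 3.96) were higher in replicate 1 and *Stat2* in replicate 2 (20.1 FPM, the others 14.8 to 16.0).

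All 5 flagged genes of 1d-dox were higher in replicate 1. They were *Igtp* (14.8 FPM, the others 1.40 to 1.79), *Zbp1* (8.77 FPM, the others 1.64 to 2.02), *Irf9* (14.6 FPM, the others 5.82 to 6.78), *Dtx3l* (26.2 FPM, the others 14.3 to 15.6) and *Lgals3bp* (27.6 FPM, the others 16.2 to 17.3).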

How the results depend on the processing

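The lower calls of 12w-res kept their direction under every alternative run, and the counts moved as follows. Scaling by total reads gave 2 genes higher and 4 lower at 12w+dox against 6w+dox and 34 lower in 12w-res against 12w+dox, with medians over the 46 genes of 0.055, -1.32 and, against 6w+dox, -1.02, while the median of all genes stood at 0.29, -0.61 and -0.33. Under that scaling *Tor3a* turned from 0.56 to -0.084 in 12w-res against 12w+dox. A pseudocount of 1 left 6 lower calls in 12w-res against 12w+dox and 0 higher calls at 12w+dox. Without a minimum fold change the calls were 4 higher and 10 lower at 12w+dox against 6w+dox (all genes 10.4% and 12%), 2 higher and 30 lower in 12w-res against 12w+dox, and 1 higher and 29 lower against 6w+dox (all genes 17% and 16.8%). DESeq2 called 2 genes higher at 12w+dox. With sex as a covariate 0 were higher at 12w+dox, and among females 0 were higher and 3 lower. The cause of these differences was not tested. Leaving out 1 mouse at a time gave 0 to 2 higher calls at 12w+dox and a median of -0.90 to -0.64 in 12w-res against 6w+dox, with the lowest value without 6w+dox replicate 1.

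Mice share replicate numbers across groups, but their deviations did not go together (r from -0.21 to 0.24). With the replicate number as a block, 0 genes were higher and 7 lower at 12w+dox, 12 were lower in 12w-res against 12w+dox and 17 against 6w+dox, and 0 were called in the short-term experiment. Depth limits the scarcest genes (*Oas2*, *Oas3*, *Mx1*), which rested on few reads, and the scarce genes of the short-term experiment, such as *Isg15* with 0 to 43 reads.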
